A study of Mus musculus with 6 samples.

Results

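The levels of 10 matricellular and adhesive matrix genes were measured by bulk RNA-Seq in the mouse ductus arteriosus (DA), the fetal artery that joins the pulmonary artery to the aorta and closes after birth. The genes were *Fn1*, *Tgfbi*, *Postn*, *Tnc*, *Thbs1*, *Thbs2*, *Sparc*, *Spp1*, *Vtn* and *Nell1*, 10 of the 23997 genes in the table. *Tgfbi* was chosen by its lower level in the mutant libraries of this table, and *Fn1* because the study took it up from its differential expression in the same comparison. The values of both genes between the groups are therefore given as a description, with no test. The other 8 genes were added as related matrix proteins, with earlier results of these data known.

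The 6 libraries were made from total RNA of frozen DA of C57BL/6 embryos at E17.5. Of these, 3 were labelled wild type (WT 0, WT 1 and WT 2) and 3 were labelled *Prdm6f/f; SM22-Cre* (KO 0, KO 1 and KO 2). The mutant carries a floxed *Prdm6*, a gene for a PRDM family repressor of smooth muscle cells (SMCs), and a Cre driven by the SM22 promoter, which is active in SMCs and, during development, in heart muscle, so the recombination is limited to cells that have used this promoter. Neither the genotype of the WT embryos at the flox and Cre loci nor whether a library pools embryos was given in the labels. Nothing in the labels says that the libraries of a group came from separate litters, so the p-values measure only the spread between these libraries.

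Matricellular proteins are secreted into the extracellular matrix and modulate how cells adhere, migrate and respond to growth factors, with less of a load-bearing role than the fibrillar collagens. Fibronectin is an adhesive glycoprotein that cells assemble into fibrils through integrins, and periostin, tenascin C and thrombospondins bind to it or to the collagens laid beside it. In the DA, fibronectin is known for its part in the migration of SMCs into the intimal cushions that help the vessel to close.

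The deposited values were FPKM, fragments scaled by transcript length and by library size, so levels of different genes can be set side by side per length. Whether a further scaling between the libraries was applied was not given in the sources used here. The upper quartile of FPKM was between 10.4 and 10.8 in all 6 libraries, and the relative depth read from low values was 0.927 to 1.19 times that of WT 1. The share of all FPKM taken by small RNA genes and the ribosomal precursor *Rn45s* was unequal, at 31.1%, 9.43% and 7.96% in WT 0, WT 1 and WT 2 and at 16.1%, 35.97% and 58.9% in KO 0, KO 1 and KO 2, and its part in the values of the matrix genes was not tested. *Prdm6* itself was at 41.7, 48.4 and 19.8 FPKM in WT 0, WT 1 and WT 2 and at 48.6, 27.1 and 15.4 FPKM in KO 0, KO 1 and KO 2. These groups overlapped, and as the floxed part of the gene was not given in the sources used here, *Prdm6* FPKM did not check the labels. By qRT-PCR, a different measure, the paper reports lower *Prdm6* in the DA and the aorta of this mutant. The KO 0 library held both *Xist* (81.0 FPKM) and the Y-linked *Ddx3y* (26.4 FPKM), whereas each of the others was high for only 1 of these genes. WT 1 and KO 2 stood apart by heart muscle transcripts, with summed levels of 1260 and 1333 FPKM over 9 genes against 57.9 to 534 FPKM in the other libraries.

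The 8 smooth muscle markers (*Acta2*, *Myh11*, *Tagln*, *Cnn1*, *Actg2*, *Smtn*, *Lmod1* and *Myocd*) were all detected in every library of the labelled tissue. Their summed level was 2454 to 5635 FPKM in the WT and 870 to 2379 FPKM in the KO libraries, and the mean of 8 of 8 was lower in KO. The sums were close at their near ends, and the groups of *Acta2*, *Smtn* and *Myocd* overlapped. The other 5 had every KO library below every WT library, beside 7.84% of all tested genes. Schwann cell markers moved the other way, with a summed level of 12.6 to 37.9 FPKM in WT and 46.6 to 147 FPKM in KO and a higher KO mean for 7 of 8 genes. Neuronal markers were at 18.2 to 37.3 FPKM in WT and 43.4 to 76.5 FPKM in KO, with a higher mean for 8 of 8. Fibroblast and adventitial markers overlapped between the groups, at 2352 to 4311 FPKM in WT and 1816 to 3647 FPKM in KO, as did endothelial markers, at 319 to 463 FPKM and 401 to 589 FPKM. Erythroid markers, 6 of 8 of which were in the table, had a higher KO mean for 6 of 6, with sums of 3863 to 7581 FPKM in WT and of 12638, 24357 and 4284 FPKM in KO 0, KO 1 and KO 2, which overlapped. The part of these shifts in the values of the matrix genes was not tested, and in bulk tissue fewer cells of a type and less RNA per cell cannot be told apart.

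**Figure D1:**
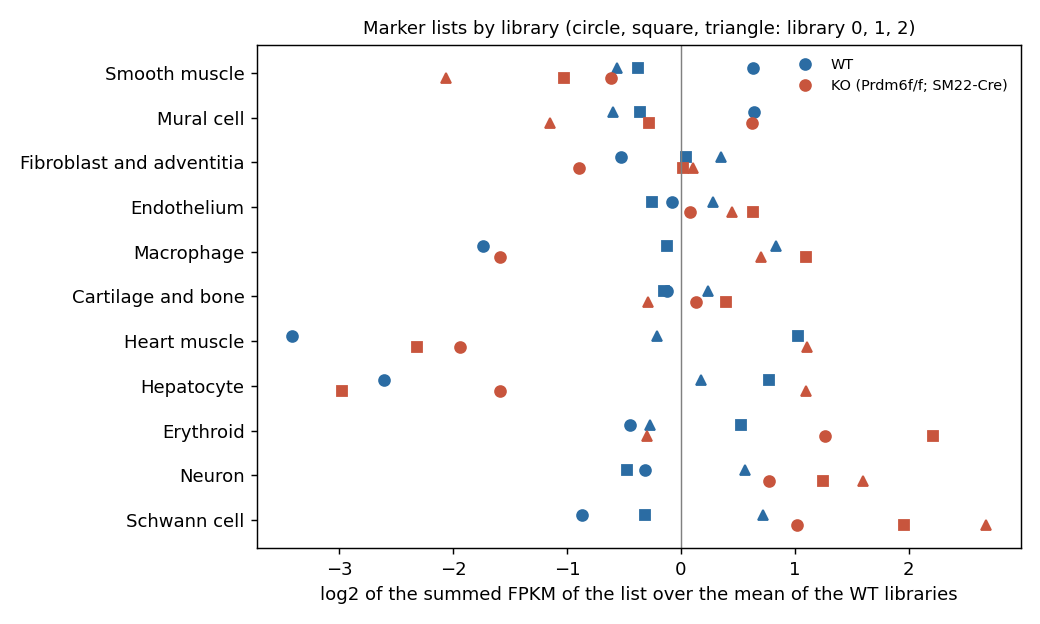
Log2 ratio of the summed FPKM of each cell type marker list in a library to the mean of the WT libraries, with 1 point a library, WT in blue and KO in red. The smooth muscle sums of the 3 KO libraries (870 to 2379 FPKM) lay below those of the 3 WT libraries (2454 to 5635 FPKM), and the Schwann cell and neuronal sums lay above them.

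In the wild-type DA, the 10 genes ranged from among the most abundant transcripts of the vessel to listed values of 0. *Sparc*, *Fn1* and *Postn* were the most abundant, at 1225 ± 175, 1163 ± 189 and 1087 ± 106 FPKM (SD, n = 3), and overlapped each other. In single libraries of either group *Sparc* ranked 21 to 35, *Postn* 23 to 47 and *Fn1* 24 to 79 among the 23997 genes by FPKM. *Thbs2* at 136 ± 16.5 FPKM and *Thbs1* at 135 ± 63.6 FPKM formed the next level, followed by *Tnc* at 84.5 ± 8.25 FPKM and *Tgfbi* at 63.7 ± 17.7 FPKM, and in this order each gene overlapped its neighbour. *Nell1* followed without overlap at 19.5 ± 2.79 FPKM, and *Spp1* and *Vtn* were at or near 0. In the KO libraries the order differed at the top, with *Postn* at 1419 ± 439 FPKM, *Sparc* at 1122 ± 35.1 FPKM and *Fn1* at 786 ± 170 FPKM. *Fn1* lay below *Sparc* in every KO library without overlap between the 2 sets of values.

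**Figure D2:**
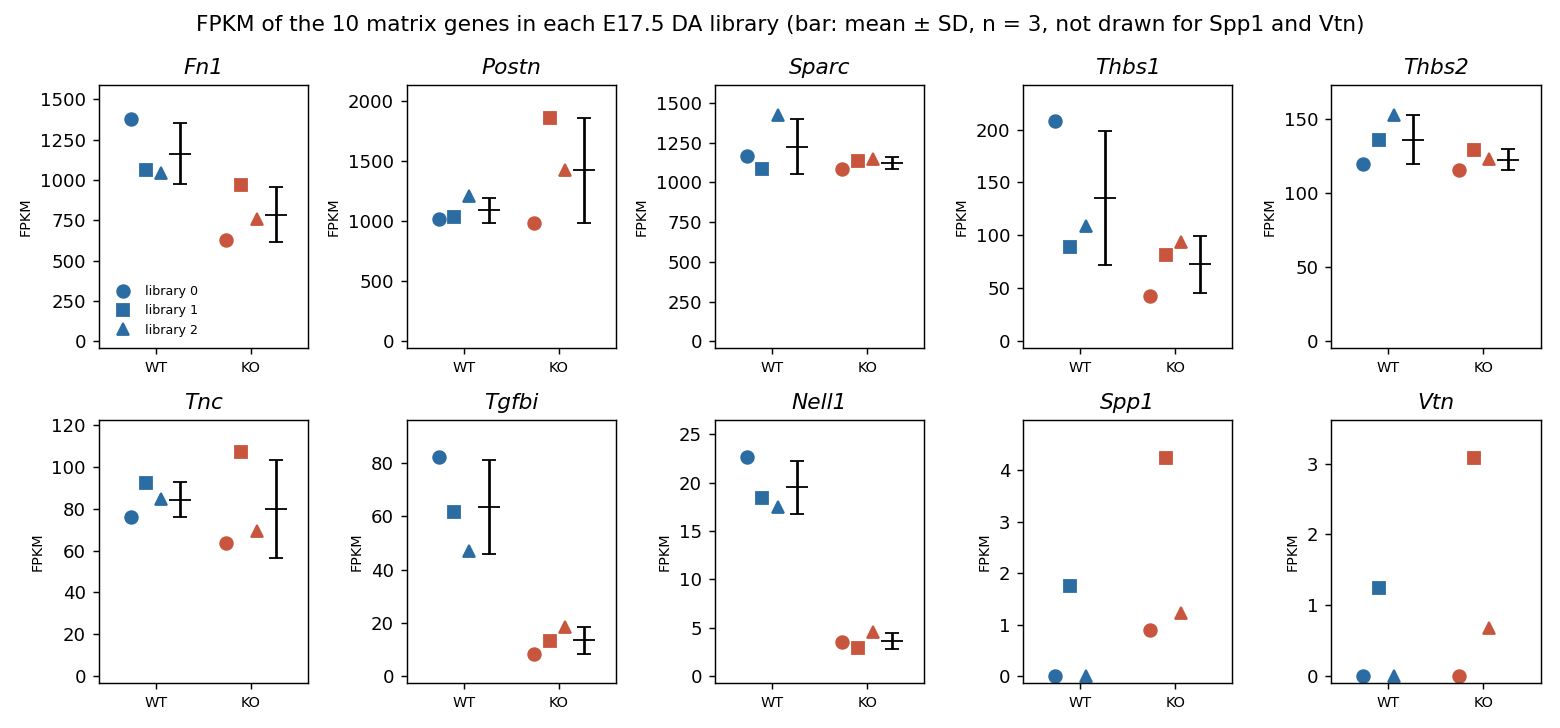
FPKM of the 10 matrix genes, 1 panel a gene with its own linear axis, in each of the 3 WT (blue) and 3 KO (red) libraries, with the mean and SD as a black bar except for *Spp1* and *Vtn*. *Fn1*, *Tgfbi* and *Nell1* are the genes whose KO points all lay below all WT points.

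*Tgfbi* and *Postn* encode the 2 secreted proteins of the group that are built from fasciclin domains. Both are known as targets of TGF-β signalling and bind integrins and collagens. Their levels are set side by side first because *Tgfbi* was lower in every KO library and *Postn* was not. The bases upstream of their start sites are shown so that this pair of paralogous genes can be compared there too, for *Postn* at the second of its 2 RefSeq start sites, the one next to the GENCODE start. The sequences are those of RefSeq on GRCm38.p6, 5′ to 3′ on the gene's strand, cut where an annotated exon begins. Capitals mark the GC box GGGCGG in the *Tgfbi* sequence (chr13:56609336-56609522, plus strand) and the TATA motif TATAAA in the *Postn* sequence (chr3:54360857-54361106, plus strand).
Tgfbi: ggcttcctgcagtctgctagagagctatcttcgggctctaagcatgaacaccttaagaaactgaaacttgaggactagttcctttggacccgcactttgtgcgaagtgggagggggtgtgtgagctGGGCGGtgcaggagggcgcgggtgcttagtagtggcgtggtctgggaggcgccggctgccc
Postn: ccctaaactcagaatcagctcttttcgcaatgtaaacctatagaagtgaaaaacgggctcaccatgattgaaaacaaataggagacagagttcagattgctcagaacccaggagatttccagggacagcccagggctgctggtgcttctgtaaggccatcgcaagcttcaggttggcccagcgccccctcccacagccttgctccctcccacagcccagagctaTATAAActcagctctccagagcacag

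The *Tgfbi* stretch of 187 bases was 59.4% G or C with 9 CpG dinucleotides, and the *Postn* stretch of 250 bases was 52% G or C with 4 CpG. Of 32851 promoters in the same RefSeq table, 12.4% held TATAAA and 32.7% held GGGCGG on either strand within 250 bases before the start. The CArG box, the serum response factor motif known from SMC genes, was found in 0 windows of the 8 genes in that table and in 1.47% of all promoters. A match of letters is a description of the window, and the lack of one says only that these letters are not there.

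*Tgfbi* (chromosome 13, 56609523 to 56639562, plus strand, on GRCm38) was at 82.4, 61.6 and 47.1 FPKM in the WT libraries and at 8.32, 13.3 and 18.4 FPKM in the KO libraries. Every KO library lay below every WT library, with a gap between 18.4 and 47.1 FPKM. The same order of the groups was seen in 7.84% of the 12955 genes tested, and nothing is read from it for *Tgfbi* and *Fn1*, which were selected on this contrast. The mean was 63.7 ± 17.7 FPKM in WT and 13.4 ± 5.04 FPKM in KO (SD, n = 3 each), 4.77-fold lower, and the difference of the group means of log2(FPKM + 0.1), called the log2 fold change here, was -2.28 with an SE of 0.34. It was this difference that selected the gene. In rank, *Tgfbi* stood at 698, 946 and 1425 among all genes in the WT libraries and at 6964, 5105 and 3769 in the KO libraries. The difference was -1.98 without KO 0, -2.55 without KO 2 and -2.55 without WT 1 and KO 2, the 2 libraries high in heart muscle transcripts.

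*Postn* (chromosome 3, 54361109 to 54391037, plus strand) did not share this direction. It was at 1019, 1032 and 1210 FPKM in WT and at 980, 1858 and 1420 FPKM in KO. KO 1 and KO 2 were above all WT libraries and KO 0 was below them, so the groups overlapped. The log2 fold change was 0.34 (SE 0.28, 95% CI -0.31 to 0.996), which did not pass the limma test over 12955 genes (adjusted p = 0.727). As a share of *Postn*, *Tgfbi* was at 8.08%, 5.97% and 3.89% in the WT libraries and at 0.849%, 0.718% and 1.30% in the KO libraries.

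*Fn1* (chromosome 1, 71585520 to 71653200, minus strand), fibronectin, was at 1381, 1063 and 1044 FPKM in WT and at 630, 967 and 759 FPKM in KO. The groups did not overlap, but the highest KO library (967 FPKM) lay close to the lowest WT library (1044 FPKM). The mean was 1163 ± 189 FPKM in WT and 786 ± 170 FPKM in KO, 1.48-fold lower, with a log2 fold change of -0.58 (SE 0.24). The difference was -0.43 without KO 0 and -0.56 without KO 2. Among the 12955 genes tested, 1698 had a lower log2 fold change than *Fn1* and 147 a lower one than *Tgfbi*. *Fn1* remained among the most abundant transcripts of the KO vessels. By immunofluorescence, a measure of protein, the paper reports less fibronectin in the DA of this mutant at E17.5. An antisense gene, *Apol7d*, shares 292 exonic bases with *Fn1*, and genes on the opposite strand share 176 with *Tnc* and 208 with *Thbs1*. Whether the counting used strand was not given in the sources used here. *Spp1* shares 309 exonic bases with *Gm42793* on its own strand, which strand could not separate.

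Together, the 10 genes summed to 3582 to 4086 FPKM in the WT and 2927 to 4300 FPKM in the KO libraries, which overlapped. The shares of *Fn1*, *Postn* and *Sparc* in this sum are described here. *Fn1* made up 33.9%, 29.7% and 25.6% of it in WT and 21.5%, 22.5% and 20.9% in KO, with every KO library below every WT library. *Postn* made up 25.0%, 28.8% and 29.6% in WT and 33.5%, 43.2% and 39.0% in KO, with every KO library above. The ratio of *Postn* to *Fn1* was 0.738, 0.971 and 1.16 in WT and 1.55, 1.92 and 1.87 in KO. Since *Fn1* was selected on this contrast, these shares and ratios are descriptions and carry no test. Shares of the same sum are tied to each other, so a lower share of *Fn1* by itself raises that of *Postn*. The levels of *Postn* overlapped between the groups. *Sparc* kept an overlapping share, 28.6% to 34.8% in WT and 26.4% to 37.0% in KO.

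**Figure D3:**
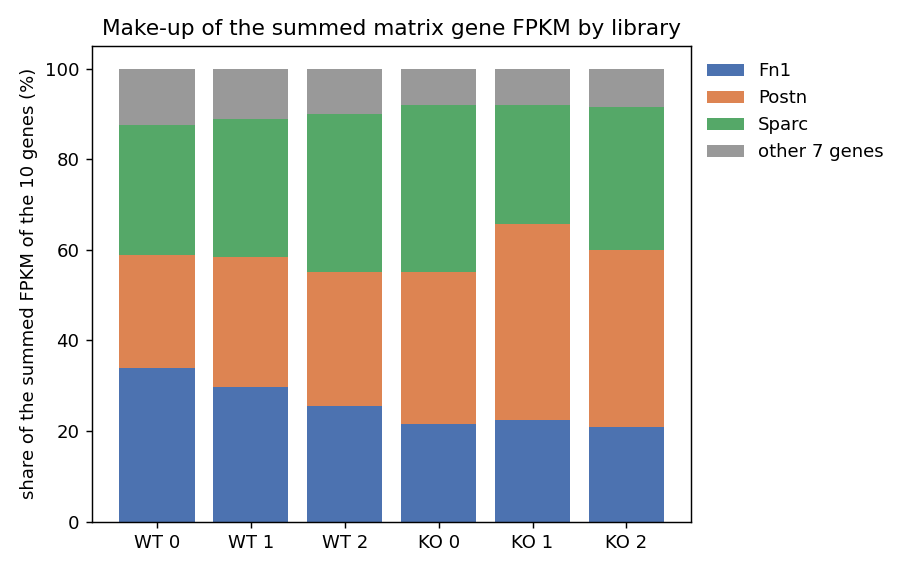
Share (%) of the summed FPKM of the 10 matrix genes taken by *Fn1*, *Postn*, *Sparc* and the other 7 genes in each library. *Fn1* took 25.6% to 33.9% in WT and 20.9% to 22.5% in KO, and *Postn* 25.0% to 29.6% and 33.5% to 43.2%.

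*Nell1* (chromosome 7, 49974864 to 50866608, plus strand) encodes a secreted protein with a thrombospondin-like domain that is best known in bone, where it promotes osteoblast differentiation. It was at 22.7, 18.4 and 17.45 FPKM in WT and at 3.47, 2.86 and 4.56 FPKM in KO. All KO libraries were far below all WT libraries, and the spread within each group was small. The mean was 19.5 ± 2.79 FPKM in WT and 3.63 ± 0.857 FPKM in KO, 5.37-fold lower, with a log2 fold change of -2.41 (SE 0.31, 95% CI -3.14 to -1.68). The adjusted p was 0.170 in limma over all 12955 genes, so *Nell1* was not called, although its unadjusted p of 7.42e-05 was the 5th smallest. The log2 fold change was -2.39 without KO 0 and -2.58 without KO 2. The two-sided exact permutation test gave p = 0.1, the smallest that 3 libraries against 3 allow. As the list was composed with earlier results known, this rank is not independent evidence. *Nell1* was at 27.5% to 37.1% of the *Tgfbi* level in WT and at 21.5% to 41.8% in KO, with overlap.

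The *Nell1* window of 250 bases before the RefSeq start lies in an annotated exon and is not printed. It was 72% G or C with 22 CpG and held 3 GC boxes, a CCAAT motif and no TATAAA. Among all promoters of that table, 33.8% held CCAAT. Cartilage and bone markers were low in the DA, with sums of 33.5 to 43.9 FPKM in WT and 30.5 to 49.0 FPKM in KO over 10 genes, and *Matn1* was listed at 0 in all 6 libraries.

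*Thbs1* (chromosome 2, 118111876 to 118127133, plus strand) and *Thbs2* (chromosome 17, 14665500 to 14694235, minus strand) encode the trimeric thrombospondins, which restrain angiogenesis. Thrombospondin 1 can also release latent TGF-β. *Thbs1* was at 208, 89.4 and 109 FPKM in WT and at 42.7, 81.5 and 93.3 FPKM in KO. KO 2 lay above WT 1, so the groups overlapped, and WT 0 was far above the other WT libraries. The log2 fold change was -0.88 (SE 0.39, 95% CI -1.79 to 0.03, limma adjusted p = 0.609). It was -0.52 without WT 0 and -0.54 without KO 0, the highest and the lowest of the 6 libraries, and -1.35 without WT 1 and KO 2. *Thbs2* was at 119, 136 and 152 FPKM in WT and at 115, 129 and 123 FPKM in KO. Its groups overlapped, with a log2 fold change of -0.14 (SE 0.16, 95% CI -0.51 to 0.22, limma adjusted p = 0.779). The ratio of *Thbs2* to *Thbs1* ranged from 0.574 to 1.52 in WT and from 1.31 to 2.71 in KO, with overlap.

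*Tnc* (chromosome 4, 63959785 to 64047015, minus strand) encodes tenascin C, an anti-adhesive glycoprotein of developing and remodelling vessels. It was at 76.1, 92.6 and 84.8 FPKM in WT and at 63.9, 107 and 69.4 FPKM in KO, with KO 1 above and KO 0 and KO 2 below every WT library. The log2 fold change was -0.11 (SE 0.22, 95% CI -0.63 to 0.41, limma adjusted p = 0.879), and its sign turned when KO 0 was left out (0.034). *Sparc* (chromosome 11, 55394500 to 55423183, minus strand), the collagen-binding protein osteonectin, was at 1167, 1086 and 1422 FPKM in WT and at 1082, 1134 and 1149 FPKM in KO. These groups overlapped closely, with a log2 fold change of -0.12 (SE 0.21, 95% CI -0.61 to 0.38, limma adjusted p = 0.865). For *Tnc*, *Sparc* and *Thbs2* the intervals left room for falls of 0.51 to 0.63 and rises of 0.22 to 0.41 on the log2 scale.

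*Spp1* (chromosome 5, 104435118 to 104441050, plus strand), osteopontin, is an integrin-binding phosphoprotein made by bone cells, macrophages and dedifferentiated SMCs. It was listed at 0, 1.75 and 0 FPKM in WT and at 0.904, 4.24 and 1.22 FPKM in KO, so WT 1 lay above KO 0 and KO 2. It passed the filter on low values, a mean of 1 FPKM over the 6 libraries, only through the KO libraries (a mean of 2.12 FPKM, beside 0.582 FPKM in WT), so no p is given. The summed macrophage markers, 7 of 8 of which were in the table, were at 36.7 to 218 FPKM in WT and at 40.8 to 263 FPKM in KO. *Vtn* (chromosome 11, 78499091 to 78502324, plus strand), vitronectin, is a plasma protein made mainly by the liver. It was listed at 0, 1.24 and 0 FPKM in WT and at 0, 3.08 and 0.677 FPKM in KO and did not pass the filter. Hepatocyte markers summed to 6.12 to 63.6 FPKM in WT and 4.73 to 79.8 FPKM in KO. In WT 1, KO 1 and KO 2, the libraries with *Vtn* above 0, their sums were 63.6, 4.73 and 79.8 FPKM. A relation between them and *Vtn* was not tested. An exact 0 can be a failed estimate, so no fold is given for these genes.

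Apart from *Fn1* and *Tgfbi*, 7 of the 8 genes passed the filter, *Spp1* only through its KO values, and 0 of 7 were called at an adjusted p under 0.05 by limma. Over all genes the share called was 0.00772%, a single gene (*Rn45s*). The paper, with a different test and a larger stated group size, reports many more differentially expressed genes for its DA comparison. The counts given here are therefore not set against those of the paper. At an unadjusted p under 0.05, 1 of 7 was lower (*Nell1*) and 0 were higher, where the shares over all genes were 4.97% lower and 3.31% higher. Of these 7, 1 had every KO library below every WT library (*Nell1*), beside 7.84% of all genes, and 0 had every KO library above, beside 8.21%. The count at an unadjusted p moved with the setting, to 3 without WT 1 (*Nell1*, *Thbs1* and *Spp1*). In that setting *Spp1* was higher, but its remaining WT values were listed at 0 and it passed the filter through KO values. Nothing is therefore read from *Spp1*. The count was 2 (*Nell1* and *Thbs1*) without KO 2, without both WT 1 and KO 2, with median centring and with a filter at a mean of 0.1 FPKM. As counts over so few genes, these values say nothing particular to the list.

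**Figure D4:**
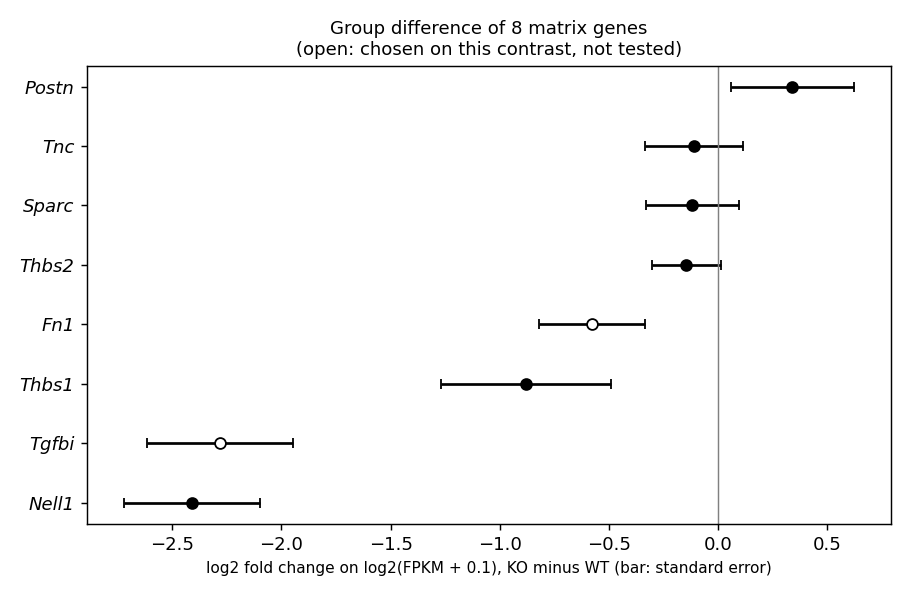
Log2 fold change (KO minus WT, on log2(FPKM + 0.1)) of 8 matrix genes with its standard error as a bar. Open symbols mark *Fn1* and *Tgfbi*, which were chosen on this contrast, and of the others drawn *Nell1* at -2.41 alone lies far from 0. *Spp1*, which passed the filter only through its KO values, and *Vtn*, which did not pass it, are not drawn.

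The genes most alike in pattern were looked up among 6327 genes with a mean of at least 10 FPKM, by the root mean square (RMS) difference of centred log2 values over the 6 libraries. For *Tgfbi* the nearest was *Ptger4* (RMS 0.240), the prostaglandin E2 receptor EP4, through which prostaglandin E2 acts on the DA. *Ptger4* was at 32.4, 22.8 and 21.8 FPKM in WT and at 5.10, 5.51 and 7.61 FPKM in KO. *Nell1* followed (RMS 0.323) and *Sh3bgr* next (RMS 0.393). For *Fn1* the nearest were *Auts2* (RMS 0.067), *Dctn1* (RMS 0.088) and *Nop14* (RMS 0.089), with *Auts2* at 27.9, 21.1 and 20.1 FPKM in WT and 11.8, 17.4 and 13.5 FPKM in KO. A small RMS over 6 libraries describes likeness of pattern and carries no test. As *Tgfbi* was selected for its lower KO level, genes near it by this measure share that gap between the groups. The RMS also depends on the size of the differences, so its values for *Fn1* and *Tgfbi* are not comparable.

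The proteins that read this matrix are integrins, syndecans and scavenger receptors. Of 18 such receptor genes, 17 were tested and 0 were called by limma after adjustment, while 5 were lower and 1 higher at an unadjusted p under 0.05. The shares over all tested genes were 4.97% lower and 3.31% higher. *Itga8*, the α chain of a fibronectin- and tenascin-binding integrin of SMCs, was at 126, 63.9 and 68.9 FPKM in WT and at 46.6, 27.1 and 12.3 FPKM in KO (log2 fold change -1.71, SE 0.48, limma adjusted p = 0.502). *Itga9*, whose integrin binds tenascin C and osteopontin, was at 91.9, 54.4 and 46.4 FPKM in WT and at 30.2, 33.1 and 22.3 FPKM in KO (-1.13, SE 0.29, limma adjusted p = 0.468). *Itgb5*, the β chain of a vitronectin receptor, was at 61.1, 62.0 and 57.0 FPKM in WT and at 36.8, 31.0 and 31.6 FPKM in KO (-0.86, SE 0.16, limma adjusted p = 0.332). In all 3 genes every KO library lay below every WT library, as in 7.84% of all tested genes, with the narrowest spread in *Itgb5*.

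*Sdc4*, a heparan sulphate co-receptor for fibronectin, was at 37.2, 23.9 and 64.9 FPKM in WT and at 19.4, 20.7 and 20.7 FPKM in KO (-0.93, SE 0.34, limma adjusted p = 0.574). *Lrp1*, the endocytic receptor that clears thrombospondins, was at 88.0, 92.3 and 89.0 FPKM in WT and at 56.9, 67.6 and 62.2 FPKM in KO (-0.53, SE 0.15, limma adjusted p = 0.502). These too did not overlap. *Itgb8*, whose integrin activates latent TGF-β, was in the other direction, at 3.01, 3.85 and 11.7 FPKM in WT and 9.60, 16.8 and 25.9 FPKM in KO, with overlap (1.63, SE 0.58, limma adjusted p = 0.564). *Itgb1*, the common β chain and the most abundant receptor gene, differed by -0.03 (369 FPKM in WT and 361 FPKM in KO on average, limma adjusted p = 0.963). The median log2 fold change of the receptor list was 0.050, beside 0.072 over all tested genes, and 8 of the 17 were in the lower direction. Of the 17, 5 had every KO library below every WT library, beside 7.84% of all tested genes. In 1, *Itgav*, every KO library lay above every WT library, beside 8.21%. *Itgav* was at 41.6, 41.5 and 38.1 FPKM in WT and at 50.3, 47.0 and 47.3 FPKM in KO (0.25, SE 0.15, limma adjusted p = 0.670).

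**Figure D5:**
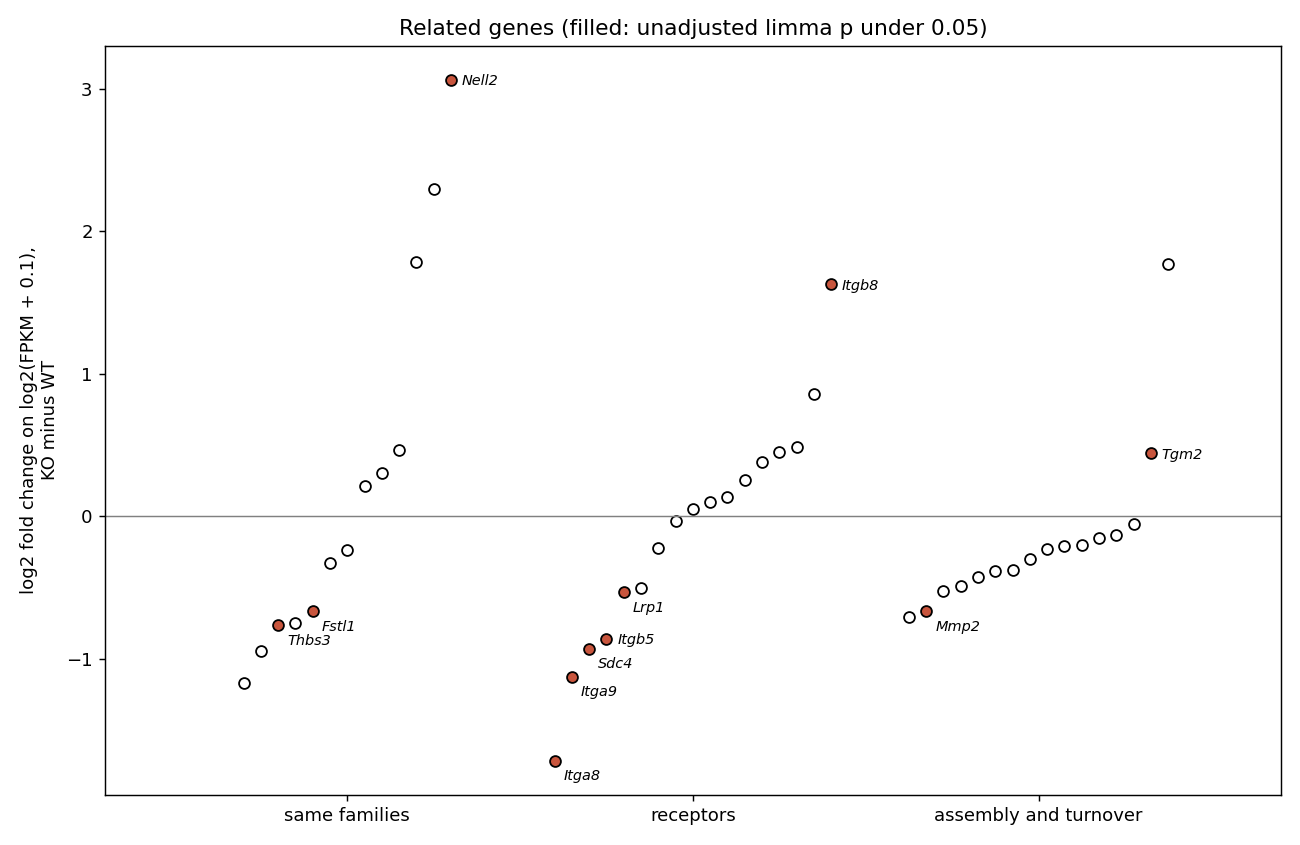
Log2 fold change (KO minus WT, on log2(FPKM + 0.1)) of the tested genes of the same families, of receptors, and of assembly and turnover partners, each ordered by value. Filled points had an unadjusted limma p under 0.05 and none passed after adjustment, and the high fitted value of *Nell2* depends on the pseudocount, as one WT library was at 0.

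Of 18 further genes of the same protein families, 13 were tested, 0 were called by limma after adjustment, and 2 were lower and 1 higher at an unadjusted p under 0.05, beside 4.97% and 3.31% of all tested genes. *Fstl1*, a secreted relative of *Sparc*, was the most abundant and was at 2090, 1380 and 1459 FPKM in WT and at 1085, 1118 and 871 FPKM in KO, without overlap (-0.66, SE 0.26, limma adjusted p = 0.588). *Thbs3* was at 40.7, 22.5 and 50.5 FPKM in WT and at 20.8, 23.5 and 19.3 FPKM in KO, with overlap (-0.76, SE 0.31, limma adjusted p = 0.591). *Sparcl1* (94.7 FPKM in WT and 122 FPKM in KO on average) and *Smoc2* (44.7 and 37.7 FPKM), the next most abundant, differed by 0.21 and -0.24 (limma adjusted p = 0.895 and 0.783), less than their spread between libraries. *Nell2*, the paralog of *Nell1*, was at 2.0, 1.04 and 0 FPKM in WT and at 7.47, 3.86 and 4.55 FPKM in KO (limma adjusted p = 0.591). Thus the KO libraries lay below the WT libraries for *Nell1* and above them for *Nell2*, and *Nell2* was low in both groups. Of the 13 tested family genes, 1 (*Fstl1*) lay wholly below and 1 (*Nell2*) wholly above, beside 7.84% and 8.21% of all tested genes.

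Of 16 genes for assembly, cross-linking and turnover of this matrix, 16 were tested and 0 were called by limma after adjustment. The direction was lower in 14 of the 16, beside 5748 of all 12955 genes, with a median log2 fold change of -0.26, beside 0.072. At an unadjusted p under 0.05, 1 was lower and 1 higher, beside 4.97% and 3.31% of all genes, so nothing particular to the list is read from these counts. *Mmp2*, a gelatinase, was at 135, 122 and 163 FPKM in WT and at 64.1, 118 and 88.9 FPKM in KO (-0.67, SE 0.25, limma adjusted p = 0.574). *Tgm2*, the transglutaminase that cross-links fibronectin, was at 39.9, 39.2 and 43.5 FPKM in WT and at 57.0, 53.5 and 56.2 FPKM in KO (0.44, SE 0.15, limma adjusted p = 0.552). *Tgm2* was thus above and *Mmp2* below the WT range in every KO library. Of the 16 genes, 1 lay above and 3 lay below in this way, beside 8.21% and 7.84% of all tested genes. The most abundant partners, *Fbln2* (573 and 476 FPKM on average in WT and KO), *Fbn1* (388 and 299 FPKM) and *Mmp14* (208 and 178 FPKM), differed by -0.30, -0.39 and -0.23 (limma adjusted p = 0.705, 0.609 and 0.688).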

How the data were processed

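The deposited values were FPKM per gene and library. The authors trimmed the reads, aligned them to mm10 with TopHat2 and quantified genes with Cufflinks (versions and annotation not given in the sources used here). Cuffdiff, which the methods name, needs the alignments and was not repeated, and FPKM cannot be turned back into counts, so the depth is known only in relative terms. Each of the 6 columns was matched to a library by its title. Genes with a mean of at least 1 FPKM were compared on log2(FPKM + 0.1) with limma 3.58.1 (R 4.3.3, trended eBayes, two-sided, Benjamini-Hochberg over 12955 genes, threshold 0.05). The fitted change of low genes depends on the pseudocount. The script was tested on simulated data. The members, lists and tests were chosen with earlier results of these data known. Related genes were named at an unadjusted p under 0.05 or as the 3 of highest mean FPKM in a list, and the 3 genes nearest in pattern by RMS. *Itgav* was named besides, as the receptor gene with every KO library above every WT library. Gene positions came from GENCODE vM21 (GRCm38), and promoters from RefSeq (GRCm38.p6), which matched 8 of the 10 genes. Alternatives covered the pseudocount, filter, scaling, variance model, replicate block and omission of libraries.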

Additional observations from a re-analysis of the deposited data

How the results depend on the processing

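In each of the 16 alternatives, 0 of the tested members and 0 related genes were called by limma, and *Fn1*, *Tgfbi*, *Postn*, *Thbs1*, *Sparc* and *Nell1* kept their direction. *Nell1* ranged from -2.62 to -2.15 (log2), with an adjusted p of 0.130 to 0.670. The genes called over the whole table rose from 1 to 2 without the variance trend, 2 without moderation and 3 without WT 1 and KO 2, a setting chosen after seeing the data, and were 1 to 3 when single libraries were omitted. The members whose groups did not overlap, 1 in the main comparison, were 1 to 4 with each library left out and 4 without WT 1 and KO 2, with *Nell1* among them each time. Leaving out WT 0 added *Thbs2*, WT 1 added *Sparc*, *Spp1* and *Thbs1*, KO 0 added *Postn*, KO 1 added *Tnc* and KO 2 added *Thbs1*. With fewer libraries, the groups lie apart more often in any gene. The share over all genes was not computed for these settings, so nothing is read from these additions. *Tnc* changed sign under quantile normalization (0.035), with a library left out (range -0.34 to 0.034) and without WT 1 and KO 2 (0.042), and *Thbs2* under quantile normalization (0.0055), and the cause was not tested. With each library left out, *Fn1* ranged from -0.74 to -0.43, *Tgfbi* from -2.55 to -1.98 and *Postn* from 0.12 to 0.58. *Spp1* had no value with a mean of at least 5 FPKM or without KO 1. The paper calls the controls littermates, but which libraries shared a litter was not given. Same-numbered libraries deviated with correlations of 0.122, -0.0761 and -0.00878, which over so few libraries cannot settle whether they are pairs. The numbers were therefore not read as pairs in the main comparison. The replicate block gave 1 gene called, 0 members and an adjusted p of 0.251 for *Nell1*. With 3 libraries a group and unknown total depth, levels near 0 could not be resolved.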
